A study of Mus musculus with 4 samples.

Results

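*Rec8*, *Lbp* and *Zpld1* are 3 of the 23284 genes counted in this series, and they were selected because their counts were much higher in limb cells without functional Osr1 than in limb cells with 1 functional copy. RNA was sequenced from cells that were sorted by FACS for GFP from limbs at E13.5. The samples were 2 *Osr1* GCE/+ and 2 *Osr1* GCE/GCE embryos of the strain C57BL/6J, each sequenced as its own library. GCE is a knock-in allele that places eGFP and CreERt2 at the *Osr1* locus. GFP reports *Osr1* promoter activity, GCE/+ cells keep 1 intact allele, and GCE/GCE cells have none. All 4 embryos carried at least 1 GCE allele, so no wild-type cells were compared, and cells were sorted by activity of the very locus that the allele disrupts. Each library held the fragments of a mixed cell population, so that fewer cells of a type and less RNA per cell cannot be told apart.

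The products of the 3 genes act in unrelated places. Rec8 is the meiotic kleisin, the subunit that closes the cohesin ring around sister chromatids in germ cells, where it takes the place of the mitotic kleisin Rad21. It works there with other germline subunits such as Stag3 and Smc1b. Lbp is the lipopolysaccharide binding protein, a plasma protein made mainly by the liver that carries bacterial lipopolysaccharide (LPS) to the receptor Cd14 and from there to Tlr4 and Ly96. Zpld1 is a membrane protein with a zona pellucida (ZP) domain, the module with which egg coat proteins and the tectorins of the inner ear assemble into filaments. It is known from the cupula of the semicircular canals. None of the 3 is a usual marker of limb connective tissue.

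*Rec8* (ENSMUSG00000002324.8) lies at chr14:55618037-55625395 on the plus strand of GRCm38, and its longest coding transcript in GENCODE M21 has 20 exons and 591 codons. *Lbp* (ENSMUSG00000016024.9) lies at chr2:158306493-158332852 on the plus strand, with 15 exons and 481 codons. *Zpld1* (ENSMUSG00000064310.10) lies at chr16:55225175-55297986 on the minus strand, with 13 exons and 415 codons. The genes are on 3 different chromosomes, and no other annotated gene overlaps any of them. Reads were mapped to mm9, and these positions were taken by gene symbol from the GRCm38 annotation rather than converted.

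Start regions from RefSeq (GRCm38.p6) were found for *Rec8* and *Zpld1*, each with 250 bases before and 50 bases after the start. They are shown because the 2 genes were higher in the same cells and yet these 2 RefSeq windows differ strongly in composition. Which start is used in these cells was not tested. The *Rec8* window is chr14:55617916-55618215 on the plus strand and the *Zpld1* window is chr16:55283188-55283487 on the minus strand, both printed 5′ to 3′ on the strand of the gene with every CG dinucleotide in capitals.
Rec8: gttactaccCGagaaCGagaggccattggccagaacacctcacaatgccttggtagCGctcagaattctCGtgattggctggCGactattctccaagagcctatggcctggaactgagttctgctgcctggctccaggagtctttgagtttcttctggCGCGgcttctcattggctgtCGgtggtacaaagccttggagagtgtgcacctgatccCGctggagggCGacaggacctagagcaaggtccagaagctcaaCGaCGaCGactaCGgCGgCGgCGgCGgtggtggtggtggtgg
Zpld1: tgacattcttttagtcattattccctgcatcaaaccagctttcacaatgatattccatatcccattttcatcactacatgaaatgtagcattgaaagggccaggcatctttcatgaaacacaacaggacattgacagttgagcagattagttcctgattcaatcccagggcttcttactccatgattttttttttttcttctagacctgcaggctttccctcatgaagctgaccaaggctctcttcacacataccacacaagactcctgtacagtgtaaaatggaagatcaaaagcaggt

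The *Rec8* window held 18 CG dinucleotides and 58.3% G and C, and the *Zpld1* window held 0 CG dinucleotides and 40.3% G and C. Over the 32817 start windows of this length, the medians were 7 CG dinucleotides and 52.7% G and C, and 5.43% of windows held 0. The RefSeq start of *Rec8* was 129 bases inside the GENCODE gene, and that of *Zpld1* was 14749 bases inside it, so the *Zpld1* window belongs to a downstream start. Each of 7 short motifs was searched on both strands as a description only, and the search was chosen after the files had been seen. *Rec8* held 3 matches to CCAAT, all on the opposite strand, which begin at positions -226, -177 and -81 from the start. CCAAT was added after reading that sequence. It was present in 37.4% of all windows and at least 3 times in 3.37%. ACAAT, the core that Sox factors bind, occurred once in each window and in 31.0% of all windows. Neither window held CAGTAGC, the letters of the Osr core (3.70% of all windows), CACGTG (7.15%), TTCCCGC (4.60%), TATAAA (13.6%) or TTCNNNGAA (8.29%).

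Total counts ranged from 52121596 to 61402140 per library, and 3 counts, taken as the smallest level that the depth can show, corresponded to 0.0489 to 0.0576 CPM. CPM scales each count to the same number of sequenced fragments, after TMM correction of library sizes. *Osr1* itself was at 81.9 and 79.1 CPM in GCE/+ cells and at 11.9 and 13.9 CPM in GCE/GCE cells, so that all libraries matched their labels. Between the genotypes, 285 of 15645 tested genes (1.82%) passed a Benjamini-Hochberg adjusted p of 0.1 in the quasi-likelihood test of edgeR, 140 higher (0.895%) and 145 lower (0.927%) in GCE/GCE cells. The markers of limb mesenchyme did not pass in any of 12 genes with edgeR, with 2 at an unadjusted p under 0.05 and 3 passing with DESeq2. *Xist*, the RNA of the inactive X chromosome, was at 1142 CPM in GCE/GCE replicate 1 and at 0.572 to 2.63 CPM in the other libraries, so that library stood apart from its replicate.

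*Rec8* was counted 120 times in GCE/+ replicate 1, 47 times in GCE/+ replicate 2, 672 times in GCE/GCE replicate 1 and 692 times in GCE/GCE replicate 2. These counts correspond to 1.97, 0.899, 11.6 and 11.3 CPM, with a mean of 1.43 ± 0.758 CPM (SD, n = 2) in GCE/+ and 11.4 ± 0.192 CPM (SD, n = 2) in GCE/GCE cells. Both GCE/GCE libraries lay far above both GCE/+ libraries. The fitted log2 fold change was 2.97 ± 0.29 (SE), a 7.86-fold higher level, and a single GCE/GCE embryo exceeded a single GCE/+ embryo by 5.74 to 12.9-fold. Because the genes were selected on this contrast, these values are a description and carry no test. The GCE/GCE replicates differed by less than counting error, with a ratio of replicate 1 to replicate 2 of 1.02 (95% interval 0.920 to 1.14). The GCE/+ replicates did not agree as closely, with a ratio of 2.19 (1.55 to 3.14). The size of the *Rec8* difference therefore rested on the GCE/+ library it was read against. It was 12.6-fold without GCE/+ replicate 1 and 5.80-fold without GCE/+ replicate 2. Leaving out either GCE/GCE library gave 7.71 and 7.93-fold.

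*Lbp* was counted 108 and 101 times in GCE/+ cells and 549 and 605 times in GCE/GCE cells. The levels were 1.77 and 1.93 CPM against 9.46 and 9.88 CPM, with means of 1.85 ± 0.112 CPM (SD, n = 2) and 9.67 ± 0.301 CPM (SD, n = 2). The 2 embryos of each genotype lay close together, and the genotypes were well apart. The replicate ratios of 0.918 (0.694 to 1.22) in GCE/+ and 0.957 (0.851 to 1.08) in GCE/GCE cells were both within counting error. The fitted log2 fold change was 2.38 ± 0.16 (SE), or 5.22-fold. Ratios between single embryos ranged from 4.90 to 5.57, the narrowest range of the 3 genes, and leaving out any 1 library kept the fold between 4.98 and 5.45.

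*Zpld1* was the least abundant of the 3, with 16 and 24 counts in GCE/+ cells and 81 and 128 counts in GCE/GCE cells. Its levels were 0.263 and 0.459 CPM against 1.40 and 2.09 CPM, with means of 0.361 ± 0.139 CPM (SD, n = 2) and 1.74 ± 0.492 CPM (SD, n = 2). All 4 values were above the level of 3 counts, and both GCE/GCE values were above both GCE/+ values. The fitted log2 fold change was 2.29 ± 0.36 (SE), or 4.90-fold. Ratios between single embryos ranged from 3.04 to 7.96. The GCE/GCE embryos differed beyond counting error, with a ratio of replicate 1 to replicate 2 of 0.667 (0.499 to 0.888), while the ratio of 0.573 in GCE/+ cells had an interval of 0.284 to 1.12. Leaving out single libraries gave 3.77 to 6.60-fold. Non-overlap in this direction was not rare, since both GCE/GCE values lay above both GCE/+ values for 19.2% of tested genes and below them for 19.1%. With 2 embryos against 2, an exact two-sided permutation test of a single gene cannot go below 0.333.

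**Figure D1:**
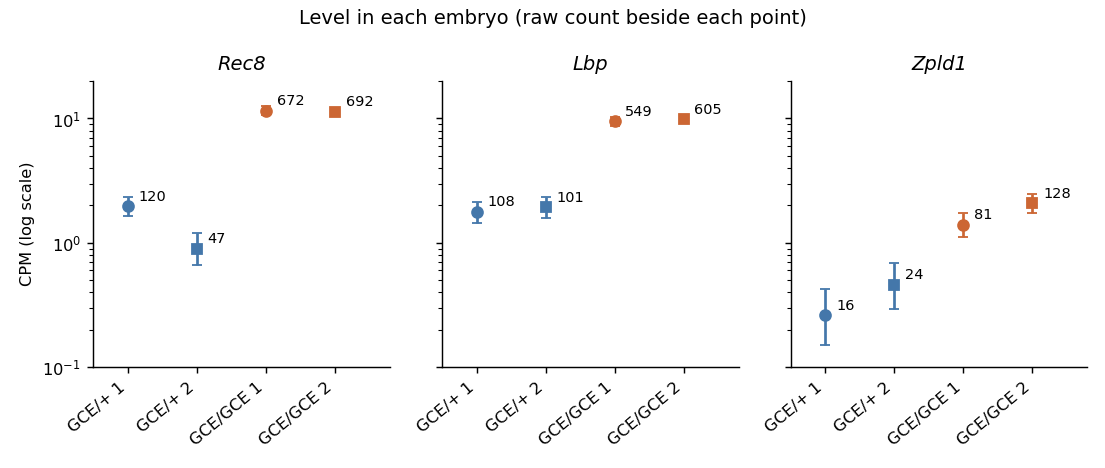
Level of *Rec8*, *Lbp* and *Zpld1* in each embryo in CPM on a log scale, with bars for the 95% Poisson interval of the count (counting error only), circles for replicate 1, squares for replicate 2, and the raw count beside each point. Both GCE/GCE points lie above both GCE/+ points in every panel, and the *Rec8* values of 1.97 and 0.899 CPM in GCE/+ cells are further apart than their intervals.

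Ordered by fitted log2 fold change among all 15645 tested genes, the values on which the genes were selected, *Rec8* ranked 3, *Lbp* ranked 5 and *Zpld1* ranked 6. A large fold did not make the genes abundant. By CPM per kb of the longest coding transcript, the scale on which genes can be compared, *Rec8* moved from the percentile 18.7 of tested genes in GCE/+ to 44.6 in GCE/GCE cells. *Lbp* moved from 19.6 to 39.3, and *Zpld1* from 5.44 to 18.5. All 3 thus stayed below the median tested gene in GCE/GCE cells.

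On the same per-length scale, *Rec8* was at 0.902, 0.412, 5.30 and 5.18 CPM per kb in GCE/+ 1, GCE/+ 2, GCE/GCE 1 and GCE/GCE 2. *Lbp* was at 0.702, 0.765, 3.75 and 3.91, and *Zpld1* at 0.0974, 0.170, 0.517 and 0.775 CPM per kb. *Zpld1* was the lowest of the 3 in every embryo. *Rec8* exceeded *Lbp* by 1.42 and 1.32-fold in the GCE/GCE embryos and by 1.28-fold in GCE/+ replicate 1, but was at 0.538 of *Lbp* in GCE/+ replicate 2. The order of *Rec8* and *Lbp* in GCE/+ cells was thus not the same in the 2 embryos. Longer transcripts tended to have higher log2 fold changes in these libraries (Spearman's rho 0.258 across 15472 genes, which are not independent replicates). In the length decile that holds *Rec8*, log2 fold changes ran from -0.59 at the 5th to 0.45 at the 95th percentile, for *Lbp* from -0.68 to 0.42, and for *Zpld1* from -0.51 to 0.46. The selection on large rises itself places the 3 genes outside these ranges.

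The first group of genes around *Rec8* is cohesin itself, the ring of Smc1, Smc3, a kleisin and a Stag subunit that holds sister chromatids together and shapes chromatin loops. Of 8 other core subunits, 6 were tested, and *Stag3* alone passed (against 1.82% of all tested genes), in the direction of *Rec8*. *Stag3* encodes the germline Stag subunit, the usual partner of Rec8 in meiotic cohesin. It was counted 388 and 337 times in GCE/+ and 582 and 689 times in GCE/GCE cells. Its levels were 6.37 and 6.44 against 10.03 and 11.3 CPM, without overlap. *Stag3* rose by a log2 fold change of 0.73 ± 0.14 (SE; edgeR quasi-likelihood test, adjusted p = 0.0649). This call was lost without GCE/+ replicate 1 (adjusted p = 0.150), without GCE/GCE replicate 2 (0.133) and without the filter on low counts (0.104), and over all alternatives the adjusted p of edgeR and DESeq2 ranged from 0.0043 to 0.150.

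The subunits used in every dividing cell were abundant, and none of them passed. *Rad21*, the mitotic kleisin, was at 281 and 312 CPM in GCE/+ and 312 and 324 CPM in GCE/GCE cells (log2 fold change 0.10 ± 0.09 SE). *Smc3* (0.07), *Smc1a* (0.05), *Stag1* (0.04) and *Stag2* (0.09) had log2 fold changes of the same small size and did not pass. The median over the 6 tested subunits was 0.08, against 0.0033 over all tested genes. The germline subunits *Smc1b*, with 8, 14, 9 and 5 counts, and *Rad21l*, with 2, 1, 2 and 4 counts, were too low to be tested. *Rec8* and *Stag3* thus had more counts than the 2 other germline subunits in every library.

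Per length, *Rec8* made up 1.25% and 0.519% of the summed level of the 3 kleisin genes *Rad21*, *Rad21l* and *Rec8* in GCE/+ embryos, and 6.29% and 5.95% in GCE/GCE embryos. *Stag3* made up 2.72% and 2.48% of the 3 Stag genes in GCE/+ embryos and 3.88% and 4.20% in GCE/GCE embryos. *Rad21* at 71.1 to 81.8 CPM per kb remained the predominant kleisin transcript in all 4 libraries. These shares are of transcripts in the sorted population and not of protein.

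**Figure D2:**
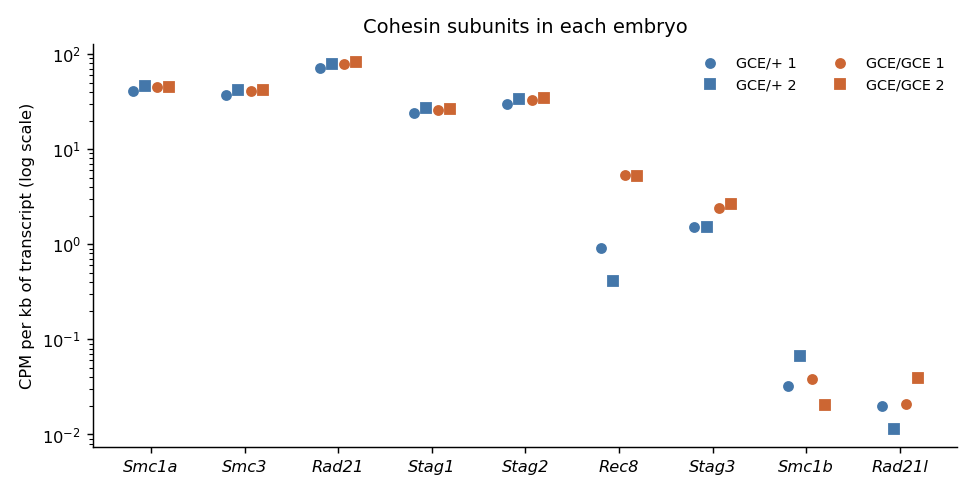
Level of 9 cohesin subunit genes in each embryo, in CPM per kb of transcript on a log scale, with GCE/+ in blue, GCE/GCE in orange, circles for replicate 1 and squares for replicate 2. *Rec8* and *Stag3* stand between the 5 abundant subunits on the left, whose genotypes overlap or nearly so, and the germline subunits *Smc1b* and *Rad21l*, which stay below 0.1 CPM per kb.

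None of the 13 genes for loading, acetylation, release and cleavage of cohesin passed with edgeR or DESeq2 (against 1.82% of all tested genes with edgeR). An unadjusted p under 0.05 in edgeR was reached by 2. These 2 were *Nipbl*, the cohesin loader, with 119 and 144 against 149 and 163 CPM (log2 fold change 0.25), and *Pttg1*, securin, with 40.8 and 36.6 against 34.6 and 22.2 CPM (-0.45), both named after their values were seen. The most abundant genes of the list were *Pds5b* (log2 fold change 0.18), *Nipbl*, *Pds5a* (0.18) and *Wapal* (0.11). The median of the list was 0.01.

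Genes of meiotic prophase, the stage in which Rec8 cohesin is known to act, were mostly low. Of 26 listed genes, 24 were in the files and 16 could be tested, of which 0 passed with edgeR or DESeq2 (against 1.82% of all tested genes with edgeR) and 2 had an unadjusted p under 0.05 in edgeR. *Stra8*, which opens the meiotic programme in germ cells, had 1, 0, 1 and 2 counts in GCE/+ 1, GCE/+ 2, GCE/GCE 1 and GCE/GCE 2. *Sycp3*, which encodes a part of the axial element of meiotic chromosomes, had 72, 52, 69 and 30 counts (log2 fold change -0.39 ± 0.39 SE). The synaptonemal complex genes *Sycp1* and *Tex12* and the axis gene *Hormad1* had at most 1 count in any library, and *Syce3* was at 0 in every library. The 4 most abundant genes of the list were *Tex15* (log2 fold change -0.27), *Mlh3* (0.10), *Syce2* (-0.0021) and *Psmc3ip* (-0.08). The highest log2 fold changes, picked out after they were seen, were those of *Tex11* (0.88, with 12 and 8 against 20 and 19 counts), *Ccdc79* (0.72, with 9 and 15 against 20 and 22 counts) and *Gm1564*, also named *Meioc* (0.66, with 214 and 146 against 207 and 391 counts). *Gm1564* passed without GCE/GCE replicate 1. In both GCE/GCE embryos, 5 of the 16 genes were above and 3 were below both GCE/+ embryos, against 19.2% and 19.1% of all tested genes. The list's median was 0.05.

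Markers of germ cells, the cells in which *Rec8* is usually expressed, were also low. Of 10 genes 5 were tested and 0 passed with edgeR or DESeq2 (against 1.82% of all tested genes with edgeR), also at an unadjusted p under 0.05. *Ddx4*, the germline RNA helicase, had 163 and 42 counts in GCE/+ and 95 and 163 counts in GCE/GCE cells. *Dazl* had 4 to 11 counts, *Dppa3* 0 to 3 and *Pou5f1* 0 to 6 counts per library. *Mael*, also not tested, had 8 and 2 counts in GCE/+ cells and 47 and 8 counts in GCE/GCE cells. The summed level of the 10 genes was 10.1 and 7.73 CPM in GCE/+ and 9.92 and 9.31 CPM in GCE/GCE cells. The most abundant of them were *Tdrd1* (log2 fold change -0.14), *Tdrd9* (0.04), *Ddx4* (0.28) and *Piwil2* (-0.03).

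*Lbp* belongs to a family of lipid transfer proteins, and 1 of its 7 listed relatives was abundant enough to be tested. *Bpi*, its neighbour on chromosome 2 and the bactericidal member of the family, had 0 counts in both GCE/+ libraries and 2 and 1 counts in the GCE/GCE libraries. *Pltp*, the phospholipid transfer protein, was the tested gene and was at 7.62 and 9.98 against 6.84 and 6.52 CPM (log2 fold change -0.40 ± 0.17 SE, edgeR adjusted p = 0.453). The 5 Bpif genes had at most 6 counts in any library. *Pltp* did not pass with DESeq2 either, and had an unadjusted p under 0.05 in edgeR.

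The 21 genes listed for LPS recognition and signalling included 3 that were lower in GCE/GCE cells. Of these 21 genes, all tested, 3 fell and 0 rose, against 0.927% and 0.895% of all tested genes. Their median log2 fold change was -0.24, 7 had an unadjusted p under 0.05 in edgeR, and 3 passed with DESeq2. In both GCE/GCE embryos, 9 of the 21 were below and 2 were above both GCE/+ embryos, against 19.1% and 19.2% of all tested genes. *Cd14*, the receptor to which Lbp hands LPS, was at 14.0 and 14.7 CPM in GCE/+ and at 8.29 and 6.09 CPM in GCE/GCE cells. It decreased by 1.00 ± 0.17 (SE) on the log2 scale (edgeR adjusted p = 0.0390). *Cd180* and *Ly86*, which form a receptor complex related to that of Tlr4, went the same way. *Cd180* was at 9.38 and 10.4 against 5.50 and 5.08 CPM (log2 fold change -0.90 ± 0.15 SE, edgeR adjusted p = 0.0366), and *Ly86* at 9.31 and 9.41 against 5.46 and 4.64 CPM (-0.89 ± 0.15 SE, edgeR adjusted p = 0.0421). *Cd180* overlaps *Mast4* on the opposite strand, and the libraries hold no strand to separate their reads.

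The receptor pair itself did not pass the test. *Tlr4* was at 2.45 and 1.82 against 1.88 and 1.42 CPM (log2 fold change -0.38 ± 0.25 SE), and *Ly96*, which binds LPS beside it, was at 2.17 and 2.08 against 1.34 and 1.85 CPM (-0.41 ± 0.23 SE). The most abundant genes of the list were the shared signalling genes *Tab2* (0.14), *Map3k7* (0.11), *Rela* (0.05) and *Nfkbia* (-0.28), and none of these passed. The calls of *Cd14*, *Cd180* and *Ly86* were kept in all 11 alternatives.

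*Cd14*, *Cd180* and *Ly86* are expressed by macrophages, and markers of macrophages moved with them. Of 9 macrophage markers 8 fell and all 9 were lower in both GCE/GCE than in both GCE/+ embryos (against 0.927% and 19.1% of all tested genes), with a summed level of 318 and 328 CPM in GCE/+ against 202 and 140 CPM in GCE/GCE cells. Their part in the fall of the LPS receptor genes was not tested. *Lbp* itself went the other way from these markers. Markers of hepatocytes, the cells that make most plasma Lbp, were low but not all absent. Their summed level over 6 genes was 1.35 and 1.49 CPM in GCE/+ and 0.913 and 1.01 CPM in GCE/GCE cells. *Alb* had 46 and 54 counts in GCE/+ and 41 and 38 counts in GCE/GCE cells, and *Fgb* was at 0 in all libraries.

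Other acute phase genes, which the liver secretes together with Lbp during inflammation, were sparse. Of 22 genes 12 were tested and 0 passed with edgeR or DESeq2 (against 1.82% of all tested genes with edgeR). An unadjusted p under 0.05 was reached by 3, and the median log2 fold change was -0.28. *Apcs*, *Fga* and *Fgb* were at 0 in every library. The most abundant were *Hpx* (-0.17), *C3* (-0.39), *Cp* (-0.51) and *Hp* (-0.39). The 3 genes with an unadjusted p under 0.05 all had positive log2 fold changes and were picked out after their values were seen. *Crp*, C-reactive protein, had 6 and 6 counts in GCE/+ and 35 and 20 counts in GCE/GCE cells (log2 fold change 2.10 ± 0.52 SE, edgeR adjusted p = 0.126). *Serpina3n*, a serine protease inhibitor, had 5 and 8 against 21 and 15 counts (1.38 ± 0.51 SE), and *Fgg*, the fibrinogen gamma chain, had 12 and 6 against 22 and 21 counts (1.17 ± 0.44 SE). Of 10 cytokines, receptors and factors that induce the acute phase, 0 passed with edgeR (against the same 1.82%) or DESeq2. An unadjusted p under 0.05 was reached by 1. The most abundant of these were *Stat3* (0.06), *Il6st* (0.11), *Socs3* (-0.12) and *Lifr* (0.10). The median was -0.10.

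Genes of related structure to *Zpld1* ranged from abundant to 0 counts in every library. Of 13 other ZP domain genes 6 were tested and 0 passed with edgeR (against 1.82% of all tested genes), with 1 at an unadjusted p under 0.05 and 1 passing with DESeq2. This gene was *Tgfbr3*, the co-receptor betaglycan and the most abundant of the list, with 192 and 205 against 162 and 148 CPM (log2 fold change -0.35 ± 0.09 SE, edgeR adjusted p = 0.125), opposite in direction to *Zpld1*. *Tecta*, the alpha-tectorin of the tectorial membrane, was at 4.40 and 5.34 against 4.98 and 4.82 CPM (0.01 ± 0.17 SE). *Tectb* had 11, 4, 6 and 1 counts and *Umod* had 0, 0, 0 and 1 counts, and neither was tested. *Oit3* was at 0.246 and 0.344 against 0.276 and 0.245 CPM (-0.17). *Eng*, endoglin, was at 25.2 and 19.8 against 24.4 and 17.1 CPM (-0.12), and *Zp3*, an egg coat protein, at 0.476 and 0.344 against 0.276 and 0.229 CPM (-0.71 ± 0.39 SE). The list's median was -0.26.

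Genes of the extracellular matrix of the inner ear, where Zpld1 protein is known, were low as well. Of 6 genes 3 were tested and 0 passed with edgeR or DESeq2 (against 1.82% of all tested genes with edgeR), with 1 at an unadjusted p under 0.05. This was *Otogl*, otogelin-like, at 3.22 and 4.93 against 2.34 and 2.22 CPM (log2 fold change -0.83 ± 0.24 SE, edgeR adjusted p = 0.193). *Otoa* (0.06) and *Otog* (0.45) were below 1 CPM. *Otol1*, *Ceacam16* and *Oc90* had 0 to 4 counts per library. The median was 0.06.

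**Figure D3:**
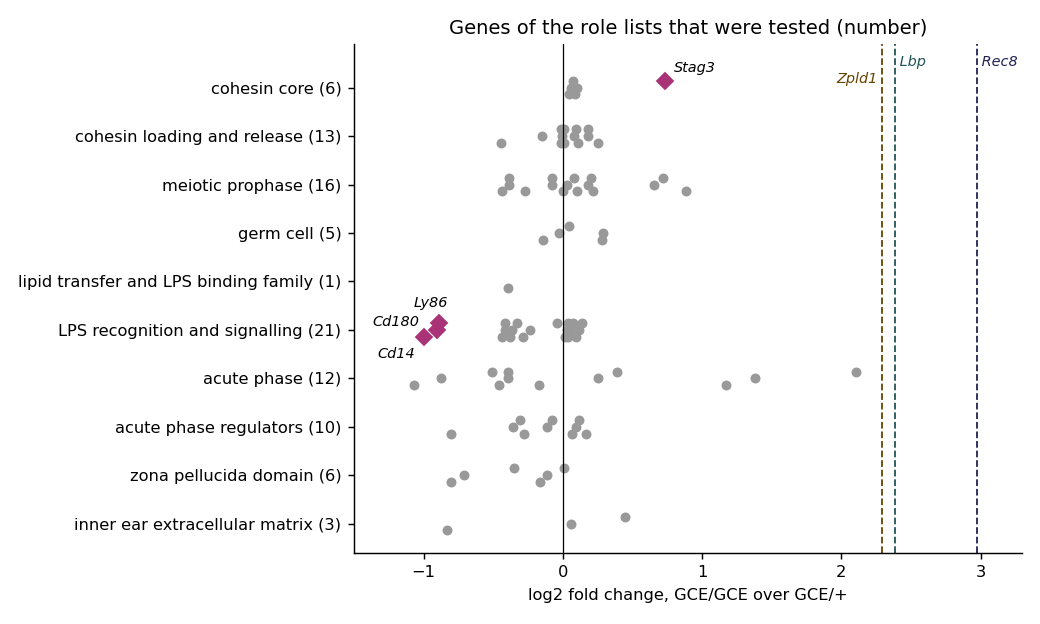
Log2 fold change (GCE/GCE over GCE/+) of each tested gene of the 10 lists, 1 point per gene, with the number tested in brackets, named diamonds for genes past the adjusted p of 0.1 (edgeR) and dashed lines at the values of the 3 selected genes. *Stag3* at 0.73 is the diamond to the right of 0, *Cd14*, *Cd180* and *Ly86* near -1 are those to the left, and no point reaches the lines of *Lbp*, *Zpld1* and *Rec8*, the nearest being *Crp* at 2.10.

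Genes beside the 3 loci were examined to see whether whole neighbourhoods were raised. Of the 10 nearest tested genes around *Rec8*, 5 on each side, 0 passed with edgeR or DESeq2 (against 1.82% of all tested genes with edgeR). None had an unadjusted p under 0.05, and their log2 fold changes ran from -0.35 to 0.03. *Ipo4*, an importin on the opposite strand that ends 4 bases past the end of *Rec8*, was at 125, 115, 117 and 110 CPM in GCE/+ 1, GCE/+ 2, GCE/GCE 1 and GCE/GCE 2 (log2 fold change -0.08). The library kit does not mark strand, so reads at this junction cannot be assigned by strand, and their part in the *Rec8* count was not tested. *Irf9*, the nearest tested gene on the other side, had a log2 fold change of -0.13.

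Around *Lbp*, 2 of 10 neighbours passed (against 1.82% of all tested genes), in opposite directions, with 2 at an unadjusted p under 0.05 and 1 passing with DESeq2. *Vstm2l* was at 0.345 and 0.344 against 0.879 and 0.915 CPM, which is 21, 18, 51 and 56 counts (log2 fold change 1.37 ± 0.30 SE, edgeR adjusted p = 0.0959). *Snhg11*, a host gene of small nucleolar RNAs, was at 12.8 and 8.74 against 6.22 and 5.16 CPM (-0.92 ± 0.20 SE, edgeR adjusted p = 0.0985). Both stood close to the threshold, and both were lost without GCE/+ replicate 1, with upper quartile normalization and without the filter on low counts. Both were also lost at an adjusted p under 0.05. *Vstm2l* was lost in addition without GCE/+ replicate 2, without GCE/GCE replicate 2, with DESeq2 and in the fit that blocks on replicate number. The genes next to *Lbp* on each side, *D630003M21Rik* (log2 fold change 0.08) and *9430008C03Rik* (-0.23), did not pass. The nearest annotated gene is *Snhg17*, 20847 bases away.

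*Zpld1* lies in a gene-poor stretch, with its nearest annotated gene, *Mir5118*, 196744 bases away. Of its 10 nearest tested genes 0 passed with edgeR or DESeq2 (against 1.82% of all tested genes with edgeR). None had an unadjusted p under 0.05, and log2 fold changes ran from -0.30 to 0.26. The closest were *Alcam*, a cell adhesion molecule (142, 156, 163 and 167 CPM, log2 fold change 0.15), and *Nfkbiz*, a regulator of NF-κB targets (186, 149, 161 and 111 CPM, -0.30).

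**Figure D4:**
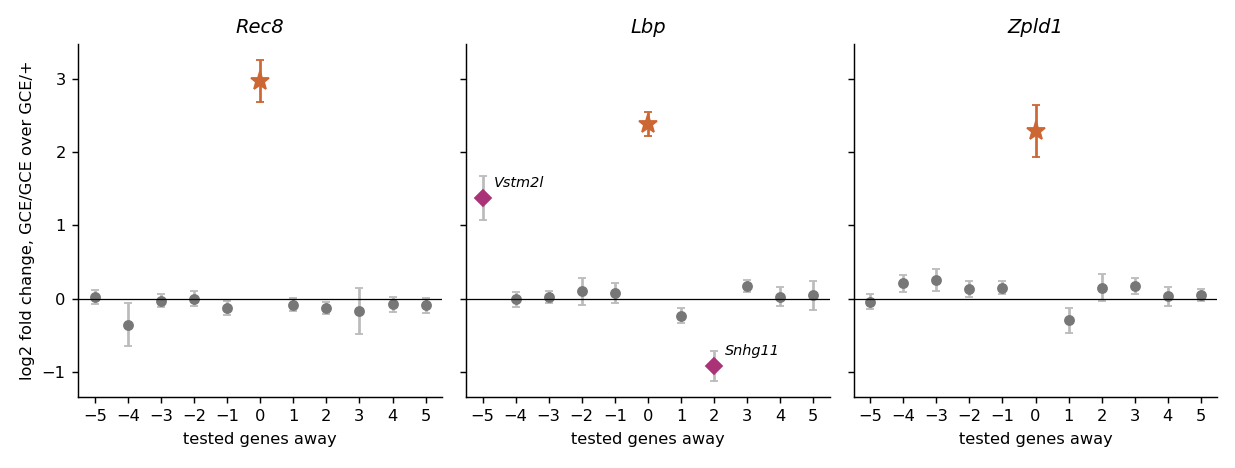
Log2 fold change (GCE/GCE over GCE/+) of the 5 nearest tested genes on each side of *Rec8*, *Lbp* and *Zpld1*, placed by their order on the chromosome, with bars for 1 SE, the selected gene as a star and genes past the adjusted p of 0.1 (edgeR) as named diamonds. Each star stands alone above 2, and the 2 diamonds beside *Lbp* point in opposite directions.

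The genes most like each of the 3 over the 4 libraries were found by the Euclidean distance between centred log2 CPM profiles, a description over 4 samples. For *Rec8* these were *Gstm6* (distance 0.660), *Tnmd* (0.922) and *5031410I06Rik* (1.08). They shared with *Rec8* a higher value in GCE/+ replicate 1 than in GCE/+ replicate 2, a likeness for which the distance itself selects. *Gstm6*, a glutathione transferase, was at 0.378, 0.0956, 2.50 and 2.92 CPM. *Tnmd*, which encodes tenomodulin of tendons and ligaments, was at 15.8, 7.88, 50.4 and 48.9 CPM in the order GCE/+ 1, GCE/+ 2, GCE/GCE 1 and GCE/GCE 2. *Tnmd* was thus lower in the same GCE/+ embryo as *Rec8*, on the values by which it was chosen.

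The distance rests on the same 4 values that the selection used, and few tested genes have rises of this size, so that the 3 genes lie near each other by selection. The genes nearest to *Lbp* were *Zpld1* (distance 0.589), *Glra2*, a glycine receptor subunit (0.712), and *Kctd4* (0.730). For *Zpld1* the nearest was *Casr*, the calcium-sensing receptor (0.544), at 0.115, 0.268, 0.482 and 1.01 CPM, followed by *Lbp* (0.589) and *Glra2* (0.689). *Casr* shared with *Zpld1* the lower value of replicate 1 in both genotypes, again on the values by which it was chosen. *Rec8* was further from both, as gene 32 in the order around *Lbp* and gene 281 in that around *Zpld1*. Several of these genes had few counts, such as *Glra2* with 5, 6, 22 and 24.

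Markers of cartilage and tendon also differed between these libraries. All 12 cartilage markers were higher in both GCE/GCE than in both GCE/+ embryos and 4 passed in edgeR (against 19.2% and 0.895% of all tested genes) and 3 in DESeq2, with a summed level of 778 and 1189 CPM in GCE/+ and 1637 and 1807 CPM in GCE/GCE cells. Of 8 tendon markers 3 rose and 1 fell in edgeR (against 0.895% and 0.927%) and 5 passed in DESeq2. Both GCE/GCE embryos lay above both GCE/+ embryos for 4 of the 8 and below them for 1 (against 19.2% and 19.1%). The summed level of the 8 overlapped between the genotypes, at 2302 and 1834 against 2496 and 1863 CPM. *Egr1* was the largest part of this sum, at 1706 and 1321 against 1840 and 1269 CPM. Erythroid markers summed to 508 CPM in GCE/+ replicate 1 and 173 CPM in GCE/+ replicate 2, and to 339 and 310 CPM in GCE/GCE cells. Of 5 tested osteoblast markers 1 rose in edgeR (against 0.895%) and 2 passed in DESeq2. None of 6 myogenic, 6 endothelial, 6 epidermal, 5 Schwann, 5 erythroid and 2 tested hepatocyte markers passed in edgeR (against 1.82% of all tested genes). In these lists, 3 endothelial and 2 epidermal genes had an unadjusted p under 0.05, and 1 endothelial gene passed with DESeq2. The part of these populations in the levels of *Rec8*, *Lbp* and *Zpld1* was not tested.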

How the data were processed

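The 4 samples were grouped by the genotype and replicate number in their titles. The authors mapped 50-bp paired-end reads (TruSeq RNA v2 kit, which marks no strand) to mm9 with TopHat2 and a UCSC gene model, and counted fragments per gene with HTSeq (intersection-strict), which leaves out fragments that fall in more than 1 gene. The deposited values are raw counts, 1 per gene symbol and sample, without normalization.

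Genes were filtered with edgeR's filterByExpr (15645 of 23284 genes left), scaled by TMM and tested GCE/GCE against GCE/+ with edgeR 4.0.16 (quasi-likelihood, two-sided, Benjamini-Hochberg, adjusted p under 0.1) in R 4.3.3. The procedure was tested on simulated data. The SE was derived from the F statistic. P-values set the genotype difference against the spread between embryos, 2 per genotype. That spread was estimated for each gene with information from the other genes (6.38 prior against 2 residual degrees of freedom). Intervals of counts are exact Poisson intervals and, like the level of 3 counts, cover counting error only. Of the symbols, 98.0% matched GENCODE M21, and CPM per kb used its longest coding transcript. Python 3.11.15, pandas 2.3.3, scipy 1.17.1 and matplotlib 3.10.9 were used.

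*Rec8*, *Lbp* and *Zpld1*, the gene lists and the tests were chosen with earlier results of these data known. Beside them, the text names list genes that passed, the 4 genes of highest mean CPM in each list, direct partners and paralogs, neighbours that passed or were nearest, and the 3 nearest profiles. *Crp*, *Serpina3n*, *Fgg*, *Tex11*, *Ccdc79*, *Gm1564*, *Pttg1*, *Mael* and genes named for counts at or near 0 were named after their values were seen where this rule did not name them. The alternatives were DESeq2 1.42.0 (with the authors' alpha of 0.05), RLE and upper quartile scaling, 2 other filters, a threshold of 0.05, a block on the replicate number, leaving out each sample, and levels without length.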

Additional observations from a re-analysis of the deposited data

How the results depend on the processing

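All 3 genes were higher in GCE/GCE cells under every alternative, with log2 fold changes of 2.54 to 3.66 for *Rec8*, 2.32 to 2.45 for *Lbp* and 1.92 to 2.72 for *Zpld1*, and these lowest and highest values came from leaving out single samples. The *Rec8* value without GCE/+ replicate 1, 3.66, was the only one of them to move by more than the spread between replicates. The number of genes past the threshold depended more on the setting. It was 285 as reported, 508 with DESeq2, 127 without a filter on low counts, 130 at an adjusted p under 0.05, and 199 to 961 on leaving out single samples, highest without GCE/+ replicate 2 and 748 without GCE/GCE replicate 1. For the lists around *Rec8*, the 1 call (*Stag3*) became 0 without a filter and at 0.05, and 0 to 3 on leaving out single samples. The 3 calls around *Lbp* became 3 to 6 in the same way, and the 0 calls around *Zpld1* became 1 with DESeq2 and 0 to 2. The 2 calls among chromosomal neighbours became 1 with DESeq2, 0 with upper quartile normalization, without a filter and at 0.05, and 0 to 3 on leaving out single samples. The log2 ratio of *Rec8* to *Lbp* in GCE/GCE cells was 0.45 per length and 0.24 by CPM without length. Leaving out a sample changes the number of samples and genes tested, and the other causes were not tested. With the replicate number as a block, 290 genes passed, the neighbour calls became 1 (*Snhg11*, with *Vstm2l* lost), and no other call of a list changed. The deviations of same-numbered samples had a correlation of 0.02 over 13469 genes, and no label says that a number marks a shared litter, so the samples share only a number. Depth limits *Zpld1* most, with 16 counts in its lowest sample.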
